A study of Mus musculus with 12 samples.

Results

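Nmrk2 and 8 other genes of NAD metabolism were followed in muscle of db/db mice. These animals carry a broken leptin receptor gene, and obesity and diabetes follow. The 9 genes were the rows of the deposited expression table with the symbols Nmrk1, Nmrk2, Nampt, Nmnat1, Nmnat3, Nadk2, Nnt, Sirt1 and Sirt3, out of 22390 features in all. Nmrk2 was picked because it was much lower when semaglutide was added to high-intensity interval training (HIIT), so its values in those 2 groups, and those of all 9 genes in that comparison, are given as a description without a test. All mice were male, of the C57BL/KsJ db/db genotype and 8 weeks old at the start, and each of the 4 groups had 3 libraries. The combination group ran HIIT and received semaglutide, a drug that activates the receptor for GLP-1 and stays in the body for long. The semaglutide group received the drug alone, the HIIT group trained alone, and the control group was reared normally. Training used 10 running bouts, each 4 min long and at 85 to 90% of top speed, with 2 min of recovery at 50 to 60%. It took place on 5 days a week for 8 weeks, and the sample titles give 60 min of exercise. A duration of 8 weeks is listed for every group, the semaglutide and control groups included. The protocol gives the subcutaneous dose as 30 nmol/kg daily and the sample titles as 0.05 mg/kg. The labels name no injection for HIIT or control mice, so effects of semaglutide and of being injected cannot be told apart. No healthy group without the db/db mutation was analysed here.

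NAD carries electrons between metabolic enzymes and is also cut up by sirtuins, poly-ADP-ribose polymerases and related enzymes, so cells rebuild it all the time. Muscle makes most of it by salvage. NAMPT turns nicotinamide into nicotinamide mononucleotide (NMN), the nicotinamide riboside kinases NMRK1 and NMRK2 make NMN from nicotinamide riboside, and the NMNAT enzymes join NMN to an adenylyl group to give NAD. NMRK1 is widespread, while NMRK2 is largely limited to skeletal and heart muscle, where it is also known as a muscle protein that binds the integrin alpha 7 beta 1.

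The kinases that share this reaction have unlike start regions in RefSeq. Shown are the 250 bases before the start of each, from the GRCm38.p6 tables of RefSeq and not from the build named in the submitters' notes, which is GRCm39. Nmrk2 lies on the minus strand at chr10:81202038-81202287 and Nmrk1 on the plus strand at chr19:18631766-18632015. Capitals mark a TATA box core (TATAAA) and E-boxes (CANNTG).
Nmrk2: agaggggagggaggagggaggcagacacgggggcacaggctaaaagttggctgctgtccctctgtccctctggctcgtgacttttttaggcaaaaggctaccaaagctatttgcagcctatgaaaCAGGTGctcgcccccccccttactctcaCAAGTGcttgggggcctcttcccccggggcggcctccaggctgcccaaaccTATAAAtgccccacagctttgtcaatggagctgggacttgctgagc
Nmrk1: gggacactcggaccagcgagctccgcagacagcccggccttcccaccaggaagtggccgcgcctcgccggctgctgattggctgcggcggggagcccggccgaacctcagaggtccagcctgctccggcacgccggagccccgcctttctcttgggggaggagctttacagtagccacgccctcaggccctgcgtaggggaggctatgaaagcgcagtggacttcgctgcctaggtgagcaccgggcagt
The Nmrk2 region held TATAAA at positions -46 to -41 from the start, and the E-box letters at -125 to -120 and at -97 to -92. The Nmrk1 region held neither. Of 32851 RefSeq regions of this length, 12.4% held TATAAA and 66.2% held CANNTG on either strand. The clock E-box CACGTG, present in 6.02% of the regions and overlapping the CANNTG pattern, stood at -115 to -110 and at -43 to -38 before Sirt1, and in no other of the 7 genes matched. The nuclear receptor motif AGGTCA, in 14% of the regions, was found before Nampt alone. The steroid receptor motif TGTTCT, the MEF2 site and the CArG box were in none of the regions of these 7 genes. G and C made up 58.8% of the Nmrk2 region and 69.2% of that of Nmrk1, against a median of 52.4%.

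Levels were deposited as FPKM, fragments per kilobase of transcript scaled to sequencing depth, and are compared here as log2(FPKM + 1). Estimated from the spacing of small FPKM values, depth was 17.2 to 21.3 M fragments. That puts about 103 to 764 fragments per kb of transcript behind Nmrk2 and 18 to 47 behind Nmrk1. Per library, 44 to 59 values lay within 3% of the estimate and 66 to 107 implied a depth over 3% higher, so these numbers are approximate. Ckm, the muscle creatine kinase gene, was at 5454 to 7356 FPKM. The protocol names soleus, but the fast myosin Myh4 made up 82.3 to 95% of the FPKM of 4 adult myosin heavy chain genes and the slow myosin Myh7 0.0559 to 1.52%. Of 4 heart genes, Nppa, Myl7 and Tnni3 stayed at or under 0.289 FPKM, Myl7 was listed at 0 in 11 of 12 libraries, and Myh6 was at 1.18 to 22.2 FPKM. Summed FPKM of 6 hepatocyte markers, all of them tested, was 1.32 to 5.92 in the combination group, 1.29 to 5.86 under semaglutide, 5.7 to 303 under HIIT and 159.5 to 1125 in controls. Their largest sums were in control replicates 2 and 1 and HIIT replicate 1. Summed FPKM of 4 endothelial markers was 38.4 to 40.1 in the combination group, 39.1 to 43.5 under semaglutide, 35.9 to 54 under HIIT and 51.8 to 57.6 in controls. All 9 genes reached the minimum level for testing, an FPKM of 1 in at least 3 libraries, as did 10666 genes in all. Bulk RNA cannot tell fewer cells of a type from less RNA per cell.

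Nmrk2 was low in both groups that received semaglutide. Its level was 6.05, 5.35 and 5.67 FPKM in the combination group and 9.9, 8.25 and 7.06 FPKM under semaglutide. It was 20.8, 28.8 and 44 FPKM under HIIT and 30.1, 14.4 and 30.8 FPKM in controls. All 6 libraries of mice given semaglutide therefore lay below all 6 of the other mice. This split includes the libraries that picked Nmrk2, and it was not counted over all genes. Means were 5.69 ± 0.347 FPKM in the combination group, 8.4 ± 1.43 under semaglutide, 31.2 ± 11.8 under HIIT and 25.1 ± 9.28 in controls (SD, n = 3 each). In the order of means, the combination group did not overlap with the semaglutide group above it, nor that group with controls, while controls and HIIT overlapped.

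**Figure D1:**
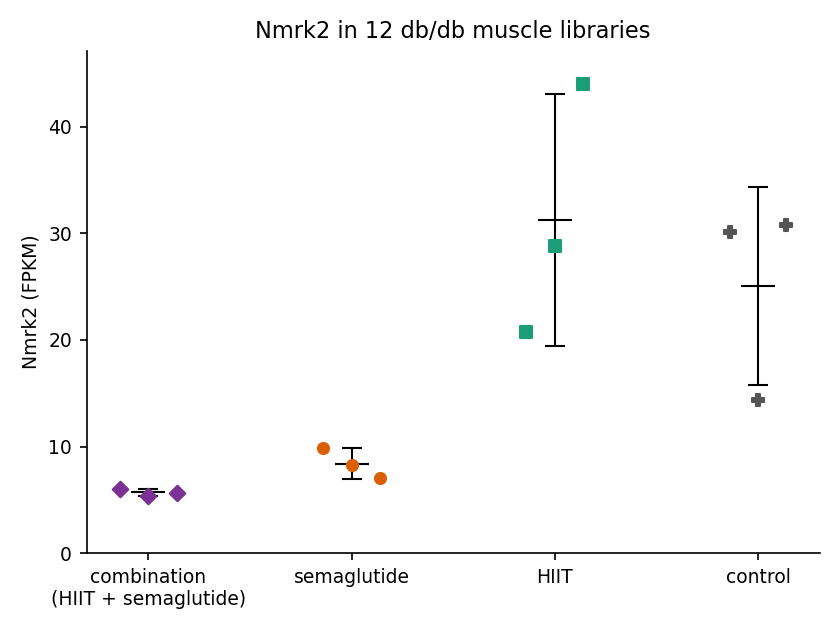
Nmrk2 in FPKM (vertical axis) in each of the 12 libraries by group, with the mean as a line and the SD as bars (n = 3 per group). The combination libraries sit between 5.35 and 6.05 FPKM and the semaglutide libraries between 7.06 and 9.9, all under the lowest control at 14.4.

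Semaglutide alone was set against control, groups outside the comparison that picked Nmrk2, although the fit takes its spread from all 12 libraries, those that picked it included. The 9 genes were also chosen with earlier results of these data known, so this test is not free of that choice. Nmrk2 fell with semaglutide, by 1.41 ± 0.30 on the log2 scale (SE, n = 3 per group, 95% interval -2.06 to -0.75, limma adjusted p = 0.0319), and its mean was 33.5% of that of controls. With only the semaglutide and control libraries fitted, the difference was the same and the call ended (limma adjusted p = 0.0697). In the fit of all libraries Nmrk2 was the 1 of 9 genes called. In this comparison 3.72% of the 10666 genes tested were called, 1.13% higher and 2.59% lower, and 188 of the 10666 had a lower log2 difference than Nmrk2. The call ended without control replicate 1 (-1.24, adjusted p = 0.118) or 3 (-1.23, 0.0696), and without semaglutide replicate 1 (-1.52, 0.107), 2 (-1.40, 0.0984) or 3 (-1.30, 0.1005). It also ended without combination replicate 2 (0.0569) or 3 (0.0545), which enter through the shared spread. Hepatocyte markers moved with these groups. Without the 3 libraries richest in them the difference was -1.77 ± 0.23 (limma adjusted p = 0.0358), with 1 control left that is assumed to vary like the other groups. The r of Alb with Nmrk2 over the 12 libraries was 0.58, and that of their deviations within groups was -0.83, both given as a description. Slow fibre markers summed to 189 to 921 FPKM in the combination group, 362 to 1103 under semaglutide, 227 to 766 under HIIT and 898 to 1777 in controls, and the part of hepatocyte, endothelial and slow fibre transcripts in the result was not tested.

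The other comparisons of Nmrk2 include the libraries it was chosen from and are described only. The combination group stood at 18.2% of the HIIT mean, a log2 difference of -2.20 ± 0.30, and 7 of 10666 genes had a lower one. Leaving out any 1 library, this difference was -2.45 to -1.93. Markers of other cells moved with these groups. Of 5 fibroblast markers, summing to 158 to 239.9 FPKM in the combination group and 197 to 398 under HIIT, Dpt (-0.98 ± 0.17, limma adjusted p = 0.0201) and Col3a1 (-2.18 ± 0.44, 0.0343) were lower in the combination and the other 3 did not pass. Of all 10666 genes tested, 321 (3.01%) were called, 112 higher and 209 lower. That count became 9 with only these groups fitted and 18 to 1574 without 1 library. Whether the Dpt and Col3a1 calls held in those fits was not examined. Of 5 macrophage markers (17.1 to 74.1 FPKM in the combination group and 24.5 to 134.8 under HIIT) and 6 white adipocyte markers (172 to 694 and 558 to 894 FPKM), 0 passed. All 11 differences were below 0, as were those of 7211 of all 10666 genes tested. The part of these cells in the Nmrk2 difference was not tested. The combination group was at 22.7% of the control mean (-1.89 ± 0.30) and at 67.7% of the semaglutide mean (-0.48 ± 0.30). HIIT against control gave 0.31 ± 0.30, with overlapping groups. The semaglutide difference with HIIT minus that without was -0.80 ± 0.42 (SE), and whether it differs from 0 was not tested.

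The other enzymes that make NMN had much smaller differences than Nmrk2. Nmrk1 (ENSMUSG00000037847), the widespread kinase, was low in every group. It stood at 1.96, 1.41 and 0.999 FPKM in the combination group and 1.54, 1.58 and 2.48 under semaglutide, and at 1.91, 1.9 and 1.46 under HIIT and 1.88, 1.56 and 1.3 in controls. All 4 groups overlapped, and semaglutide minus control was 0.14 ± 0.17 (95% interval -0.23 to 0.52, limma adjusted p = 0.698). Nampt (ENSMUSG00000020572), the rate-limiting enzyme of salvage from nicotinamide, was at 28.8, 25.2 and 26.8 FPKM in the combination group and 26.2, 27.3 and 23.2 under semaglutide. It was at 28, 28.2 and 34.4 FPKM under HIIT and 27, 29.2 and 28.4 in controls, so each treated group overlapped with controls. The semaglutide libraries lay below those of HIIT, and how many genes did so was not counted. Semaglutide minus control was -0.14 ± 0.10 (95% interval -0.35 to 0.08, limma adjusted p = 0.489).

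Because FPKM is per length, the levels of these enzymes can be set side by side. Nmrk2 made up 16.4 to 17% of the summed FPKM of Nmrk1, Nmrk2 and Nampt in the combination group and 21.6 to 26.3% under semaglutide, against 41 to 55.1% under HIIT and 31.8 to 51% in controls. Nmrk2 stood at 0.21 times the level of Nampt in the combination group and 0.302 to 0.378 times under semaglutide. It was 0.741 to 1.28 times the level of Nampt under HIIT and 0.492 to 1.11 times in controls. Even so, Nmrk2 exceeded Nmrk1 in each of the 12 libraries, by 2.85 to 30.1 times.

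The NMNAT enzymes, which complete NAD, did not pass the threshold in any comparison tested. Nmnat3 (ENSMUSG00000032456), the mitochondrial form, was at 5.7, 4.72 and 5.03 FPKM in the combination group and 4.05, 4.9 and 4.38 under semaglutide. It was at 5.91, 7.34 and 6.69 FPKM under HIIT and 6.02, 5.67 and 6.18 in controls. The 3 semaglutide libraries lay below the 3 controls, with a difference of -0.36 ± 0.10 (95% interval -0.58 to -0.13, limma adjusted p = 0.079), and the combination overlapped controls at -0.18 ± 0.10 (0.289). Across the 12 libraries Nmnat3 was the gene of the other 8 most like Nmrk2, with a Pearson r of 0.77, given as a description over libraries that share their groups. Nmnat1 (ENSMUSG00000028992), the nuclear form, was at 6.85, 7.7 and 9.15 FPKM in the combination group and 6.3, 8.24 and 7.59 under semaglutide. It was at 7.34, 9.37 and 10.6 FPKM under HIIT and 7.64, 6.78 and 6.51 in controls, and its HIIT minus control difference was 0.33 ± 0.14 (limma adjusted p = 0.529).

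**Figure D2:**
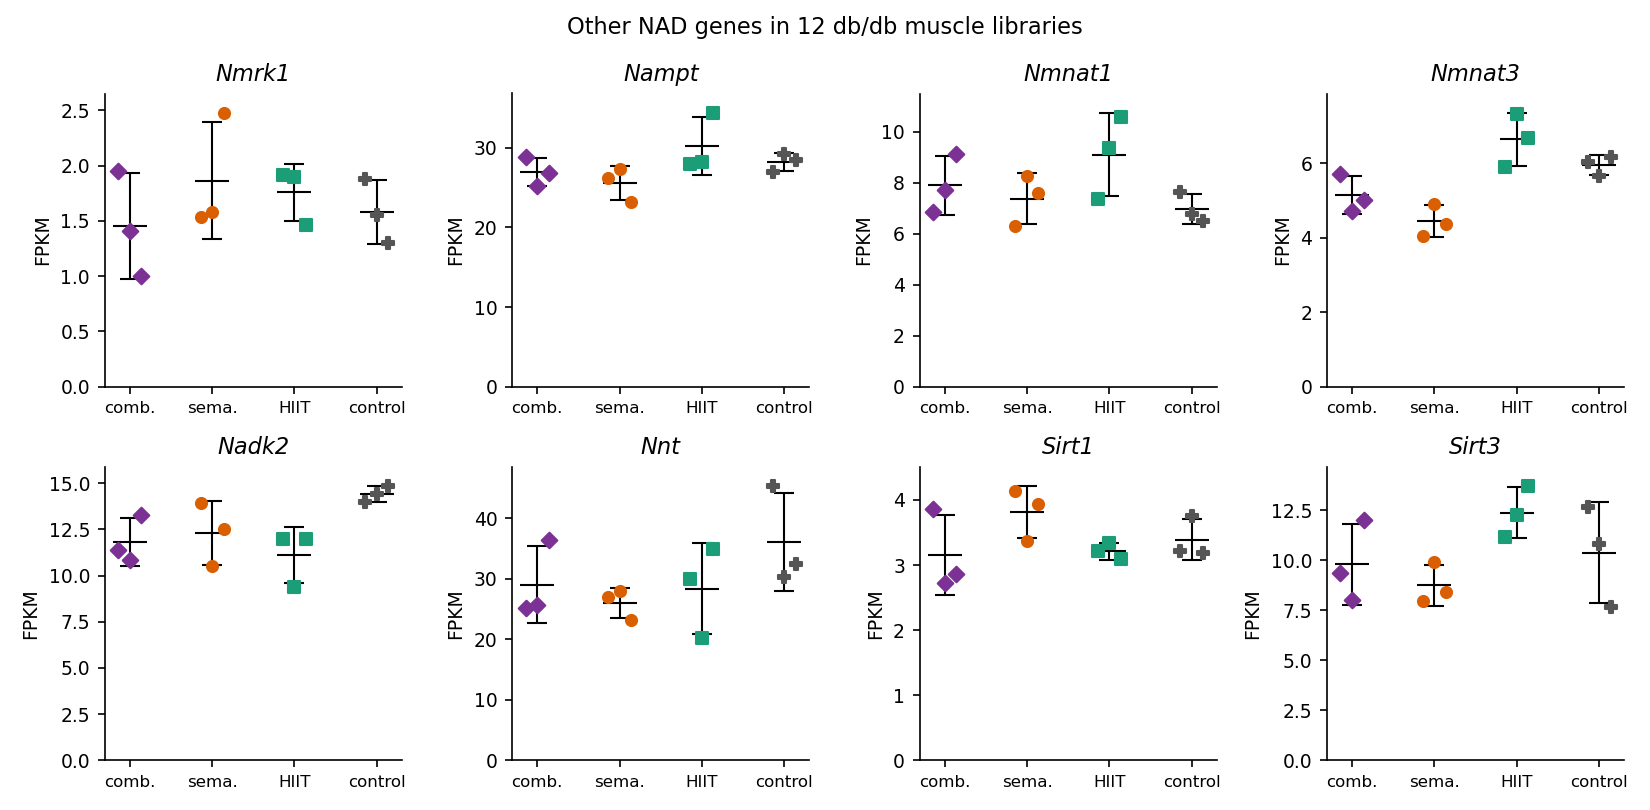
FPKM (vertical axes, from 0) of the 8 other NAD genes in each library by group, combination (comb.), semaglutide (sema.), HIIT and control, with the mean as a line and the SD as bars (n = 3 per group). All 3 controls of Nadk2, between 14 and 14.8 FPKM, lie over every library of the other groups. How many genes show this pattern was not counted.

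Mitochondrial NADP is made from NAD by the kinase encoded by Nadk2 (ENSMUSG00000022253). Nadk2 was at 11.4, 10.8 and 13.3 FPKM in the combination group, 13.9, 10.5 and 12.5 under semaglutide, 12, 9.36 and 12 under HIIT, and 14, 14.4 and 14.8 in controls. The 3 controls lay above all 9 libraries of treated mice, though the highest semaglutide library, at 13.94 FPKM, almost met the lowest control, at 13.97 FPKM. How many genes show this pattern was not counted. In pairs, 18.1% of all genes lay wholly below control with semaglutide, 7.12% with HIIT and 23% with the combination. None of the Nadk2 differences passed. HIIT minus control was -0.36 ± 0.12 (limma adjusted p = 0.437), combination minus control -0.27 ± 0.12 (0.195) and semaglutide minus control -0.22 ± 0.12 (0.367). Nnt (ENSMUSG00000025453), the inner membrane transhydrogenase that passes electrons from NADH to NADP, was at 25.1, 25.6 and 36.3 FPKM in the combination group and 26.9, 27.9 and 23.1 under semaglutide. It was at 30.0, 20.2 and 35 FPKM under HIIT and 45.3, 30.3 and 32.4 in controls. Semaglutide libraries lay below the controls at -0.44 ± 0.21 (95% interval -0.91 to 0.03, limma adjusted p = 0.296), and the other groups overlapped with them.

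The sirtuins, which spend NAD to remove acyl groups from proteins, showed no call. Sirt1 (ENSMUSG00000020063), the nuclear deacetylase, was at 3.86, 2.73 and 2.86 FPKM in the combination group and 4.14, 3.37 and 3.94 under semaglutide. It was at 3.21, 3.34 and 3.09 FPKM under HIIT and 3.22, 3.76 and 3.19 in controls, and semaglutide minus control was 0.13 ± 0.12 (limma adjusted p = 0.589). Sirt3 (ENSMUSG00000025486), the main mitochondrial deacetylase, was at 9.35, 8.03 and 12 FPKM in the combination group and 7.95, 9.9 and 8.39 under semaglutide. It was at 11.1, 12.3 and 13.7 FPKM under HIIT and 12.7, 10.8 and 7.68 in controls. Its semaglutide minus control difference was -0.20 ± 0.17 (0.571) and its HIIT minus control difference 0.25 ± 0.17 (0.719), both limma adjusted p.

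Over the 9 genes, the semaglutide comparison had 1 lower call and 6 differences below 0, beside 6236 of all 10666 genes below 0. Its median was -0.20, against -0.05 over all genes tested. For 4 genes (Nmrk2, Nmnat3, Nadk2 and Nnt) the semaglutide libraries all lay below the controls, as they did for 18.1% of all genes. For 0 of the 9 genes they all lay above, and the share of all genes above is not given here. Below-control groups without overlap were found for Nadk2 with HIIT (7.12% of all genes) and for Nmrk2 and Nadk2 with the combination (23%). Nmrk2 alone lay lower without overlap in the combination than under semaglutide (12.4%). In each of the other comparisons tested, 0 of the 8 genes other than Nmrk2 passed limma. HIIT against control had 2 of 8 at an unadjusted p under 0.05, Nadk2 (0.0141) and Nmnat1 (0.0398), with 0% of all genes called and 952 of them at that unadjusted level. Combination against control had 0 of 8 at that level, with 6.26% of all genes called, 1.09% higher and 5.18% lower. That share rested on single libraries and on the scaling, since the 668 calls (116 higher and 552 lower) became 4 without combination replicate 2, 1646 without combination replicate 1, and 354 higher and 397 lower after TMM rescaling. Combination against semaglutide had 0 of 8, with 0.00938% of all genes called, which was 1 gene, against 557 without combination replicate 1. The interaction of HIIT and semaglutide had 0 of 8, with 0% called and 822 genes at that unadjusted level. Other settings of the fit, none of them count models, gave 0 in these comparisons as well. Of the combination minus control differences, 8 of 9 were below 0, as were 7558 of all 10666 genes. After TMM rescaling 4 of the 9 were, as Nmrk1, Nampt, Sirt1 and Sirt3 turned positive. That rescaling moved the median over all genes from -0.126 to 0.00882 in this comparison and from -0.121 to -0.0105 in combination minus HIIT.

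For the combination against HIIT, which chose Nmrk2, the differences of the others are listed without a test. Sirt3 was at -0.32 ± 0.17, Nmnat3 at -0.31 ± 0.10, Nmrk1 at -0.18 ± 0.17, Nmnat1 at -0.18 ± 0.14 and Nampt at -0.16 ± 0.10. Sirt1 was at -0.03 ± 0.12, and would be positive after TMM rescaling, Nnt at 0.05 ± 0.21 and Nadk2 at 0.09 ± 0.12. The combination libraries all lay below those of HIIT for Nmrk2 and Nmnat3, as they did for 18.7% of all genes.

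**Figure D3:**
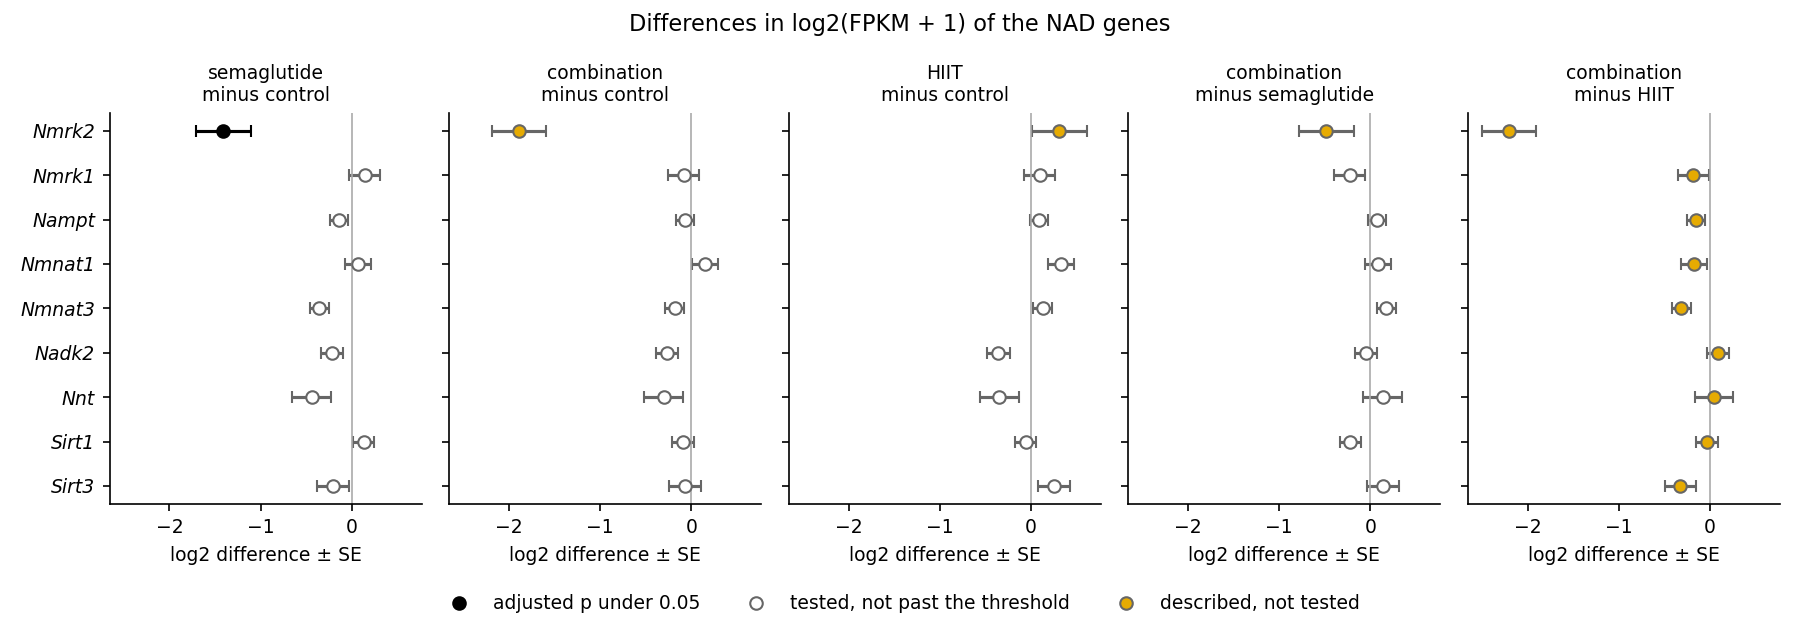
Difference in log2(FPKM + 1) with its limma SE (horizontal axes) for the 9 genes in 5 comparisons, each the first group minus the second. Nmrk2 in semaglutide minus control (-1.41) is the call past an adjusted p of 0.05, and Nmrk2 in the panels with HIIT or combination libraries is shown without a test.

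The wider NAD network was read from 5 lists of 70 further genes, of which 57 reached the minimum level. Semaglutide against control called 6 of the 57 (10.5%, against 3.72% of all genes), 2 higher and 4 lower. Combination against control called 8 (14%, against 6.26%), 2 higher and 6 lower. The lists were written with earlier results of these data known, so neither share is a test of them. Tdo2 and Haao, in both counts, and Qprt, in that of semaglutide, reached the minimum level only in control and HIIT libraries. Mrtfa, also in both counts, comes from the list of integrin partners and energy or actin factors. HIIT against control and combination against semaglutide called 0, with 6 and 8 at an unadjusted p under 0.05. The median over the 57 was -0.09 for semaglutide, -0.13 for the combination and -0.02 for HIIT, each against control, beside -0.05, -0.13 and -0.03 over all genes. Among 16 tested NADP-linked and peroxide defence genes, semaglutide called 0 and the combination 1, which was lower. Among 7 of other salvage, transport and NADP genes the counts were 0 and 1 lower as well.

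Of 16 tested genes listed under NAD consumers and nicotinamide clearance, 2 (12.5%) rose and 0 fell against control in both groups given semaglutide. Of all genes, 3.72% were called with semaglutide and 6.26% with the combination, 1.13% and 1.09% higher. Medians were -0.06 for semaglutide and -0.39 for the combination against control, beside -0.05 and -0.13 over all genes. Art1 encodes an ADP-ribosyltransferase anchored outside the muscle cell, which is known to modify integrin alpha 7. Art3 encodes a relative of it, and these data do not show whether that protein uses NAD. Art1 was at 225, 229.8 and 227 FPKM in the combination group and 193, 233 and 225 under semaglutide, against 153, 164 and 130.2 under HIIT and 166, 141 and 147 in controls. Every library of mice given semaglutide was above every other library, a split not counted over all genes. Art1 rose by 0.51 ± 0.11 with semaglutide (limma adjusted p = 0.0313) and by 0.59 ± 0.11 with the combination (0.0263), each against control. Art3 was at 352, 394 and 317 FPKM in the combination group and 385, 409 and 388 under semaglutide, against 193, 265 and 230.5 under HIIT and 212, 249.99 and 208 in controls. It rose by 0.82 ± 0.13 with semaglutide (0.0121) and by 0.66 ± 0.13 with the combination (0.0287). Leaving out 1 library ended the Art1 calls in 8 and 4 of 12 cases (adjusted p up to 0.102 and 0.0982) and those of Art3 in 2 and 4 (up to 0.0561 and 0.107). Without the 3 libraries richest in hepatocyte markers the values of Art1 and Art3 with semaglutide were 0.55 and 0.92 and neither passed (limma adjusted p = 0.296 and 0.105), nor with the combination (0.63 and 0.76, 0.239 and 0.132). The other 14 of 16 tested consumers and clearance genes, among them Sirt2, Parp1 and Cd38, did not pass in these comparisons.

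**Figure D4:**
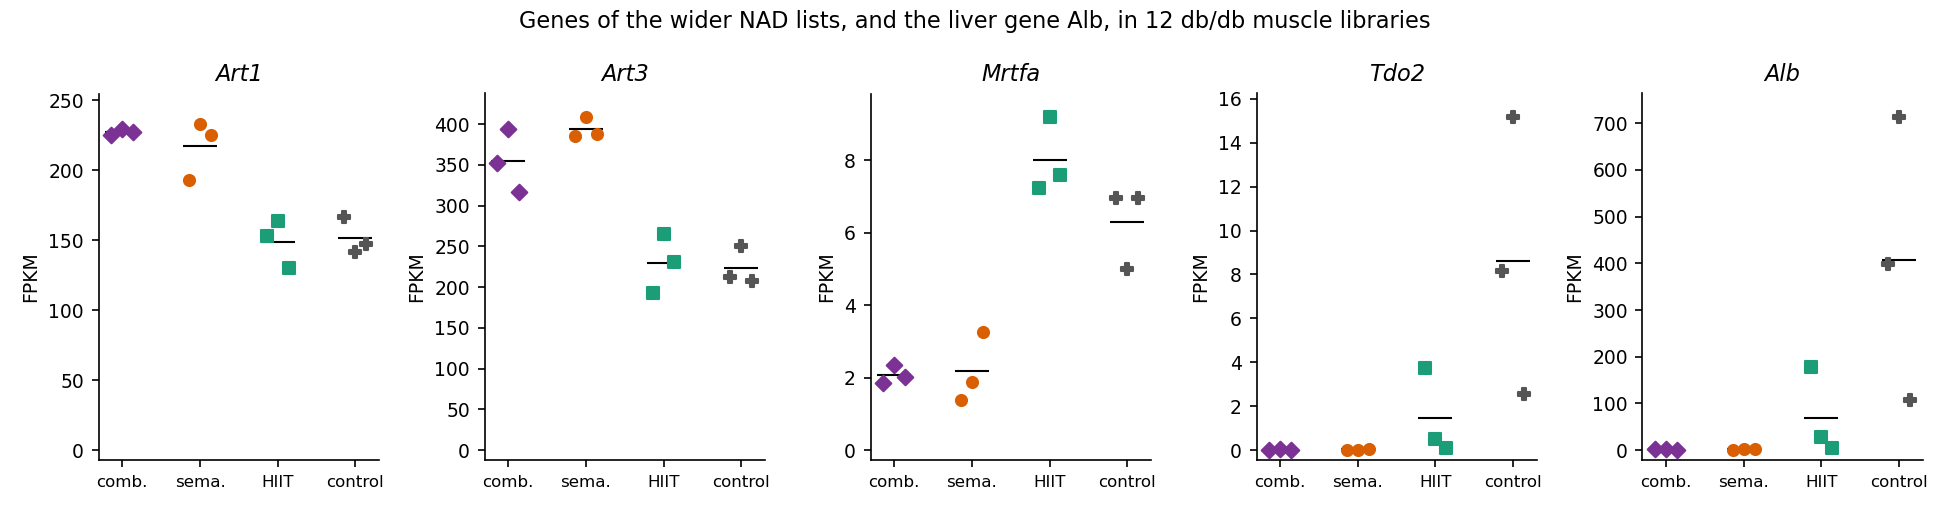
FPKM (vertical axes) of 4 genes of the wider lists and of the liver gene Alb in each library by group, with the mean as a line. Art1 and Art3 are higher, and Mrtfa lower, in all 6 libraries of mice given semaglutide, while Tdo2 and Alb are high in controls and HIIT replicate 1. How many genes separate in this way was not counted.

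Of the 14 integrin partners and energy or actin factors listed for Nmrk2, 1 (7.14%) fell and 0 rose against control in each group given semaglutide. Of all genes, 3.72% were called with semaglutide and 6.26% with the combination, 2.59% and 5.18% lower. Mrtfa, which encodes an actin-regulated coactivator of SRF, was at 1.85, 2.35 and 2.02 FPKM in the combination group and 1.38, 1.88 and 3.26 under semaglutide. It was at 7.23, 9.19 and 7.59 FPKM under HIIT and 6.96, 5 and 6.96 in controls. Its groups given semaglutide did not overlap with the others, a split not counted over all genes. It fell by 1.23 ± 0.20 with semaglutide (limma adjusted p = 0.0131) and by 1.24 ± 0.20 with the combination (0.0175), and 3 of 12 omissions ended each call (up to 0.0673 and 0.0722). Without the 3 hepatocyte-rich libraries it stood at -1.37 and -1.38 (adjusted p = 0.153 and 0.15). The integrin genes Itga7 and Itgb1, Srf, the AMPK subunit genes and the genes for the coactivator PGC-1 alpha (Ppargc1a) and the receptors Ppara and Ppard did not pass against control.

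Genes of NAD synthesis from tryptophan were lower in the groups given semaglutide, and liver markers moved with them. The part of liver transcripts in this was not tested. Tdo2, the first enzyme of the route and a liver gene, was at 0.0279, 0.0478 and 0 FPKM in the combination group and 0, 0.0283 and 0.0709 under semaglutide. It was at 3.73, 0.524 and 0.115 FPKM under HIIT and 8.14, 15.2 and 2.56 in controls. Of 4 tested genes of the route, out of 9 listed, Tdo2, Haao and Qprt fell with semaglutide and Tdo2, Haao and Afmid with the combination. Tdo2 and Haao reached FPKM 1 only in the 3 controls and HIIT replicate 1, and Qprt only in control replicates 1 and 2 and HIIT replicate 1. These 3 genes entered the test only through libraries where they are high, so their calls cannot serve as support. Afmid reached FPKM 1 in the 3 controls, HIIT replicate 2 and semaglutide replicate 2. Tdo2 fell by 2.97 ± 0.56 with semaglutide and by 2.98 ± 0.56 with the combination (limma adjusted p = 0.0289 and 0.029). Haao fell by 2.09 ± 0.48 and 2.06 ± 0.48 (0.0395 and 0.0358), Qprt by 0.94 ± 0.22 with semaglutide (0.0372) and Afmid by 0.85 ± 0.23 with the combination (0.0484). Between 4 and 10 of 12 omissions of 1 library ended each of these calls (adjusted p up to 0.141). The replicate block ended the calls of Qprt (0.0542) and Afmid (0.0535), and TMM rescaling that of Afmid (0.0658). The albumin gene Alb was at 2.6, 3.46 and 0.773 FPKM in the combination group, 0.981, 2.66 and 3.57 under semaglutide, 178, 27.6 and 3.8 under HIIT and 399, 714 and 108 in controls. Without the 3 libraries richest in hepatocyte markers, Tdo2, Haao and Qprt did not reach the minimum level, and Afmid did not pass (adjusted p = 0.238). The nucleoside transporter gene Slc29a1 fell by 0.63 ± 0.14 (0.0312) and Mthfd2l, of mitochondrial folate metabolism, by 0.45 ± 0.10 (0.0306) with the combination. In 4 and 5 of 12 omissions these calls ended (adjusted p up to 0.112 and 0.111), as did both without the hepatocyte-rich libraries (0.421 and 0.426) and that of Mthfd2l after TMM rescaling (0.0721).

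The genes most like Nmrk2 over the 12 libraries, by Pearson r of log2(FPKM + 1), were Exd2 (0.96), Ccdc69 (0.95), Hdac9 (0.91), Hdhd2 (0.90), Calm2 (0.90) and Mrtfa (0.89). Those most opposed were Hgs (-0.96), Zfand3 (-0.93), Mcl1 (-0.93) and Gosr2 (-0.92). These are descriptions, since the points share their 4 groups and the libraries share a common scaling. Hdac9 was no higher than 0.823 FPKM in any library of mice given semaglutide, against 1.32 to 2.47 FPKM in the other mice. It reached the minimum level only in control and HIIT libraries, so its r rests partly on values below that level. Within groups, where deviations from the group mean were compared, the r of Exd2 was 0.92, that of Hgs -0.79 and that of Gosr2 -0.88, while those of Calm2 and Mrtfa were -0.15 and 0.11. Exd2, an exonuclease gene, was at 6.14, 5.62 and 5.52 FPKM in the combination group, 6.97, 6.68 and 6.34 under semaglutide, 9.58, 10.2 and 10.8 under HIIT, and 8.84, 7.14 and 8.78 in controls. Like Nmrk2 it had its lowest control in replicate 2 and its highest level in HIIT replicate 3. Calm2, a calmodulin gene, averaged 54.5 FPKM in the combination group and 59.7 under semaglutide, against 94.9 under HIIT and 100.7 in controls.

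**Figure D5:**
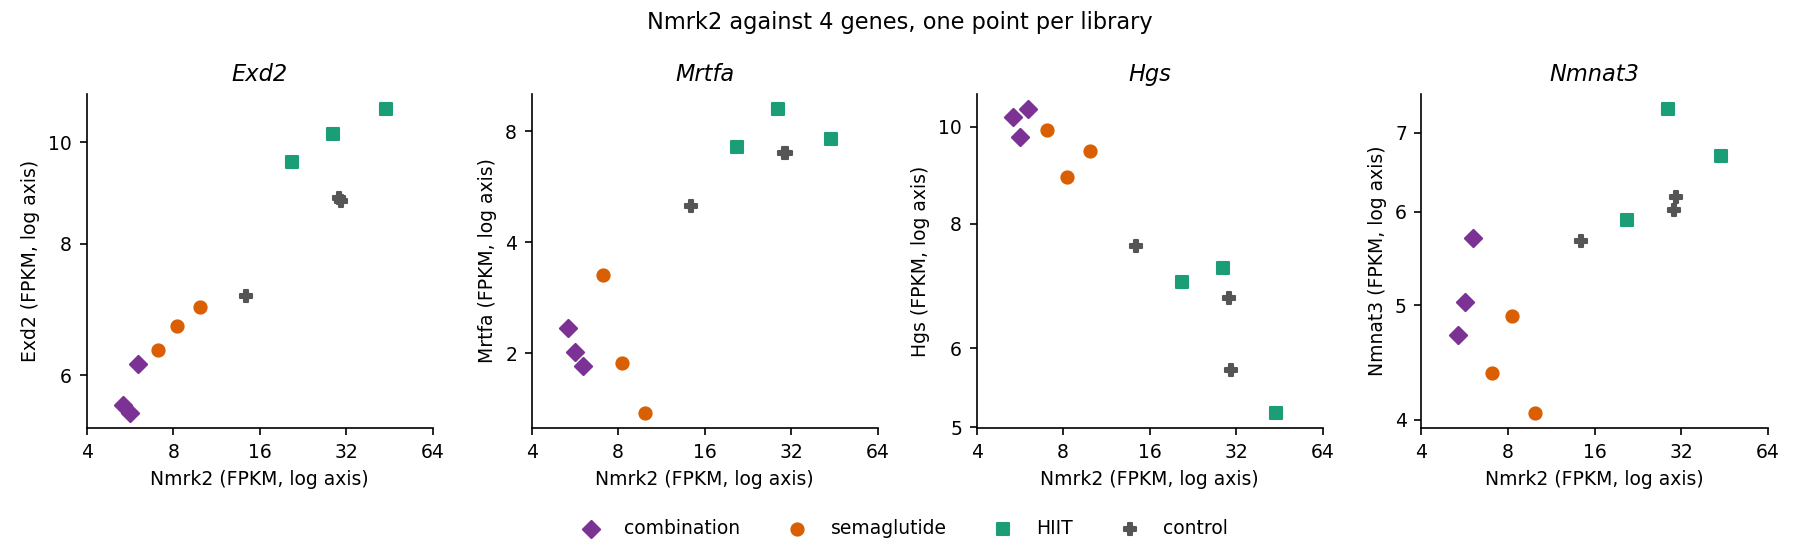
Nmrk2 (horizontal axes, FPKM, log scale) against Exd2, Mrtfa, Hgs and Nmnat3 (vertical axes, FPKM, log scale), 1 point per library, marked by group. Exd2 follows Nmrk2 between and within groups (r = 0.96 over 12 libraries), Hgs runs against it (-0.96), and Mrtfa separates mice given semaglutide from the others without following Nmrk2 inside groups.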

How the data were processed

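Muscle RNA (TRIzol, poly(A) selection) was made into stranded libraries and read from both ends, according to the labels' protocols. Tools listed in the submitters' processing notes, with no roles, include StringTie 2.1.4, STAR 2.7.9a and Trimmomatic 0.36, and the build listed is GRCm39. The authors deposited 1 table of FPKM values for 12 libraries, while the sources used here give neither its annotation release nor its filters. Raw counts were not used. Depth was estimated from the spacing of small FPKM values of 4431 genes with 1 transcript in GENCODE M21, whose lengths may differ from those behind the table.

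Values were used as log2(FPKM + 1), which understates changes of low genes, for genes that reached FPKM 1 in 3 or more libraries. One mean per group was fitted over all 12 libraries by limma (version 3.58.1, R 4.3.3) with trend and robust variance moderation, two-sided, with Benjamini-Hochberg adjustment over 10666 genes and calls at 0.05. The fit was tested on simulated data. Alternatives were another pseudocount (0.1), no filter, TMM rescaling, a replicate block, only the groups compared, plain variance moderation and omission of libraries. No label describes separate animals per library, so the p-values cover only spread among these 12 samples, which may be technical. Same-numbered libraries of the HIIT and combination groups correlated in their deviations at 0.224 to 0.294, and over all 18 pairs at -0.226 to 0.294. With the block, Nmrk2 in combination minus HIIT was again -2.20. Named were all 9 genes, called genes of the 5 lists, and the 6 genes most like and 4 most unlike Nmrk2. The genes and lists were chosen with earlier results of these data known.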

Additional observations from a re-analysis of the deposited data

How the results depend on the processing

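Of the 9 genes, 1 (Nmrk2) was called for semaglutide against control, and 0 were called when only the 2 groups compared were fitted (Nmrk2 adjusted p = 0.0697) or without combination replicates 2 and 3 together (0.0823). Leaving out 1 library gave 0 to 1 calls. The direction of Nmrk2 held in all 20 alternatives, from -1.77 to -1.23, with adjusted p of 0.0161 to 0.118. With the replicate block Nmrk2 was called (adjusted p = 0.0425), and the block changed no count of the 9 genes. For all genes, 397 were called as deposited, 373 with the block, 168 with only the groups compared and 561 after TMM rescaling. Leaving out 1 library gave 33 (without semaglutide replicate 1) to 466 (without HIIT replicate 1). For combination against control, 668 were called as deposited, 745 with the block, 122 with only the groups compared and 4 to 1646 without 1 library. Of the wider lists, the block ended the calls of Qprt and Afmid. Same-numbered libraries correlated above 0.1 in 4 of 18 pairs, while 4 libraries of 12 correlated best within their own number. Counts in the comparisons with 0 of 8 called stayed at 0 in every alternative run. Nmrk2 in combination minus HIIT stayed between -2.45 and -1.93, and in HIIT minus control between -0.03 and 0.56. Of 1080 single differences recomputed, 53 changed sign, none of them past the threshold where a test was made. Without combination replicates 2 and 3, 110 genes were called for semaglutide and 0 for the combination against control, and without the 3 hepatocyte-rich libraries 10 and 5. By the approximate depth estimate, Nmrk1 is limited most, with as few as 18 fragments per kb.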
